A study of Mus musculus with 12 samples.

Results

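Fibroblasts of the Oct4 and Tet1 system, given doxycycline for 1 day, were compared with fibroblasts of the same passage, to show which genes differ at the first step of reprogramming to induced pluripotent stem (iPS) cells. The comparison takes 6 of the 12 arrays of the series, 3 titled as intermediate-stage day-1 cells and 3 titled as a fibroblast cell line, and was chosen by those titles alone. The day-1 cells were fibroblasts at passage 3 from mice derived from iPS cells that Oct4 and Tet1 had produced, a design known as secondary induction. They spent their passages in feeder medium and then 1 day in ES medium to which doxycycline, an inducer of tetracycline-responsive promoters, was added. ES medium held 15% serum and 1000 U/ml of LIF, the cytokine that sustains mouse ES cells. Their strain is labelled OG2-GFP/Rosa26-M2rtTA, that is, a GFP reporter of Oct4 and the doxycycline-dependent activator rtTA at the Rosa26 locus, which is active in most cell types. The fibroblasts were also at passage 3, with no treatment listed, and the labels do not say that they came from the mice that gave the day-1 cells. Their strain is labelled OG2-GFP/Rosa26-M2rtTA for replicate 1, OG2-GFP/Rosa26-M3rtTA for replicate 2 and OG2-GFP/Rosa26-M4rtTA for replicate 3. The other 6 arrays, an Oct4 and Tet1 iPS cell line at passage 10 and the R1 ES cell line at passage 20, strain 129, serve here only as levels beside the comparison. Doxycycline, the medium, the LIF in it and the origin of the fibroblasts change together between the groups, and their parts cannot be told apart. For fibroblast replicates 2 and 3 the strain label differs as well.

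Oct4, encoded by Pou5f1, is a transcription factor of the pluripotent state, and Tet1 oxidises 5-methylcytosine, an early step in removing DNA methylation. Cultured fibroblasts make collagen-rich matrix, and they answer signs of infection with interferon-induced antiviral proteins, chemokines and acute-phase proteins. Early reprogramming is known for faster division and for loss of fibroblast genes, while most genes of the pluripotency network come on late.

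Each value is a log2 signal of a probe set, so a difference of 1 is a 2-fold difference. The deposited table holds 10360 probe sets that vary across the series, and 9539 genes named by a single symbol were tested. Counts for a gene list cover only its members among these genes, called measured below. The gene lists were chosen with earlier results of these data known, so their counts and shares are descriptive. The median of an array lay between 8.25 and 8.29 in both groups. Arrays correlated across genes with r of 0.996 to 0.997 within the day-1 cells, 0.991 to 0.994 within the fibroblasts and 0.927 to 0.944 between them. Fibroblast replicate 1 stood closest to the day-1 cells, since it was the fibroblast array nearest to the day-1 mean in 513 of the 743 genes called below. Without it 361 genes were called higher and 474 lower. Replicate 1 is also the only fibroblast array with the strain label of the day-1 cells, and the part of strain was not tested. The labels do not say whether the arrays of a group are separate cultures, and the p-values then cover only the spread between these samples. They name no batch either, so a batch that matched the groups cannot be told apart from them.

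A gene was called where the limma adjusted p was under 0.05 and the difference at least 1 on the log2 scale. By this rule 743 of the 9539 genes, 7.79%, were called, 330 higher (3.46%) and 413 lower (4.33%) in day-1 cells. The median difference over all tested genes was 0.05. In 742 of the 743 called genes the 3 arrays of one group did not overlap the 3 of the other, as in 67.3% of all genes tested. The large differences were mostly on the lower side: 117 genes were called lower by at least 4-fold against 17 higher, and 17 were lower by at least 16-fold against 1 higher. The adjusted p alone passed for 57.1% of genes, most of them with differences under 2-fold.

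The gene with the largest rise was that of Oct4. Pou5f1 read 4.96, 5.24 and 4.91 in the fibroblast arrays and 11.85, 11.73 and 11.81 in the day-1 arrays. The groups lay far apart, by 108-fold (log2 difference 6.76 ± 0.08, SE; limma adjusted p = 1.6e-14), and the day-1 level was close to that of the iPS cells (12.01). Tet1 read 6.59, 6.57 and 6.87 in fibroblasts and 7.47, 7.47 and 7.45 in day-1 cells, which did not overlap but differed by less than 2-fold (0.79 ± 0.09; limma adjusted p = 8.4e-06). The day-1 level of Tet1 was below its mean of 10.25 in iPS and 11.36 in ES cells. The sources do not say whether either probe set reads the introduced copy. Of 35 measured genes of the pluripotency network, Pou5f1 was the only one called, and the median difference of the list was 0.18, against 0.05 over all genes. Nanog (0.18 ± 0.10), Klf4 (-0.54 ± 0.10) and Sox2 (-0.17), transcription factors of that network, did not pass the call.

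**Figure D1:**
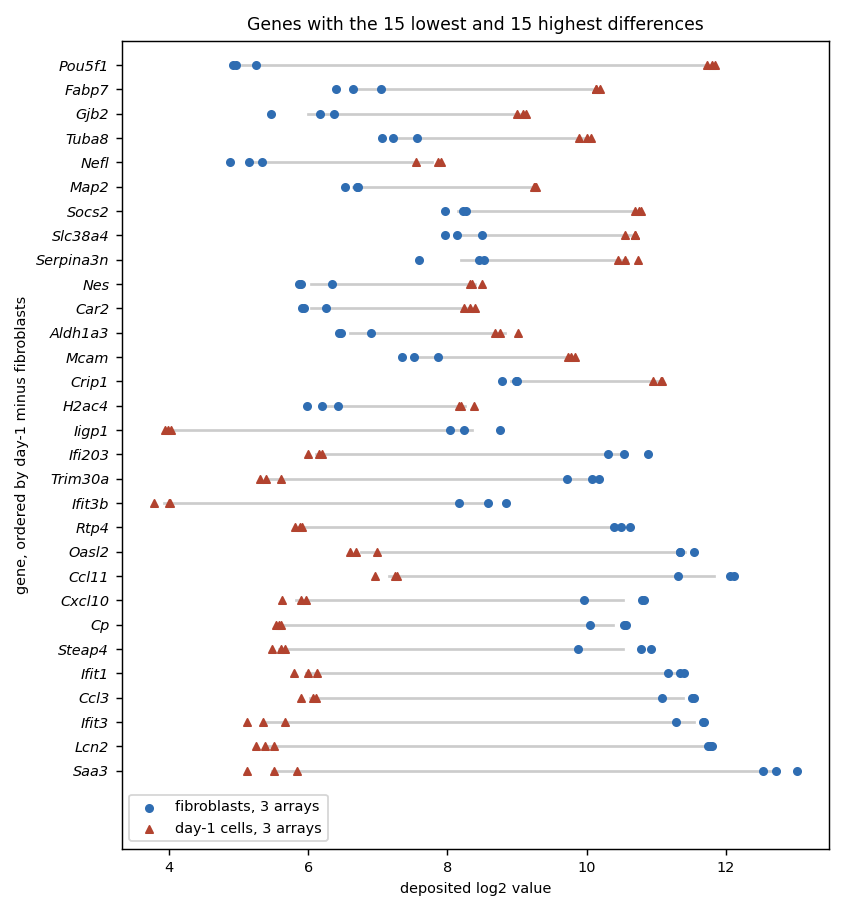
Deposited log2 values (x axis) of the genes with the 15 lowest and 15 highest differences among called genes (y axis), with 1 point per array and a grey line between the group means. Saa3 has the widest gap on the lower side and Pou5f1 on the higher side. Only genes whose day-1 arrays (triangles) and fibroblast arrays (circles) do not overlap were eligible, so the lack of overlap follows from the choice.

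Genes of innate defence were among the lowest. Type I interferons bind the receptor pair Ifnar1 and Ifnar2, which leads to the switching on of antiviral genes through a promoter element called the interferon-stimulated response element. Of 38 measured interferon effectors, 32 were called lower and 0 higher, and all 38 differences were negative, with a median of -2.54. Leaving out the dimmest 25% of genes, by the mean over all 12 arrays, removes 21 of these 38 from the test and leaves 12 called lower. That mean includes the day-1, iPS and ES arrays, where these genes are low, so genes well measured in fibroblasts can be removed. The mean of the list over the 3 arrays ran from 9.33 to 9.65 in fibroblasts and from 6.83 to 7.0 in day-1 cells.

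Ifit3, which limits translation of viral RNA together with other Ifit proteins, read 11.29, 11.69 and 11.68 in fibroblasts and 5.34, 5.11 and 5.67 in day-1 cells. All fibroblast arrays were thus far above all day-1 arrays, a difference of 72.4-fold (-6.18 ± 0.15; limma adjusted p = 2.3e-11). Ifit1, the family member that binds the 5′ end of foreign RNA, read 11.17, 11.34 and 11.40 against 6.12, 6.0 and 5.79 (-5.34 ± 0.27). Rsad2, or viperin, which makes a chain-terminating nucleotide, read 8.34, 9.07 and 9.22 against 5.49, 5.28 and 5.35 (-3.51 ± 0.18). In both genes the groups stood apart, and the lowest fibroblast array was replicate 1. Usp18, which removes Isg15 from proteins and dampens the receptor, fell by 15.3-fold (-3.93 ± 0.34). Bst2, which tethers budding virions, fell by 5.9-fold (-2.56 ± 0.22). The membrane protein Ifitm3 was high in both groups, at 13.18, 13.31 and 13.17 against 12.47, 12.30 and 12.27, and its difference of -0.88 ± 0.13 did not reach the 2-fold minimum. Oas1a (-0.97), Ifi27 (-0.76), Ifitm2 (-0.72), Isg20 (-0.59) and Ifi27l2a (-0.17) were the other effectors without a call. Ifit3 and Ifit3b, and Trim12a and Trim12c, are near-identical copies that probes may not separate.

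The promoters of 3 of these genes are shown because their stretches before the transcription start hold the interferon-stimulated response element, searched by its consensus of repeated GAAA letters on both strands and printed in capitals as it reads on the gene's strand. The stretches are 160 bases long and end at the start site, taken from RefSeq on build GRCm38.p6, at chr19:34583369-34583528 (plus strand) for Ifit3, chr19:34640729-34640888 (plus strand) for Ifit1 and chr12:26456453-26456612 (minus strand) for Rsad2.
Ifit3: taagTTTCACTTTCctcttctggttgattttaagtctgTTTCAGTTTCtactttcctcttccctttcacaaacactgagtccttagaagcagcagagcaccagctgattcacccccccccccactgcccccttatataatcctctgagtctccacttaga
Ifit1: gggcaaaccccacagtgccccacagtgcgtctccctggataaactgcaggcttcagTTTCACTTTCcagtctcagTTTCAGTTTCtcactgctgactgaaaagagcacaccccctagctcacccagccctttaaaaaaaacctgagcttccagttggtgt
Rsad2: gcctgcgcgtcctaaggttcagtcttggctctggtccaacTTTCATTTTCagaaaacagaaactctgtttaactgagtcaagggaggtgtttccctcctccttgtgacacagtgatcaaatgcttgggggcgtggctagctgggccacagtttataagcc
Ifit3 and Ifit1 hold 2 such sites each and Rsad2 holds 1. Over windows of 250 bases, 3.46% of the 27025 promoters of the RefSeq table and 3.3% of those of tested genes hold the element. The table holds a promoter for 68.8% of the genes called lower, under the 80% set for a list, so no share is given for them. For all tested genes it holds 79.0%, also under that limit, and their share is given only as a comparator.

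The interferon-induced GTPases, which attack the vacuoles of intracellular parasites, all moved with the effectors. All 6 measured members were called lower, with a median difference of -2.82, and 5 of them are among the dimmest 25% by that mean over 12 arrays, though not all are dim in fibroblasts. Iigp1 read 8.04, 8.76 and 8.24 in fibroblasts and 3.98, 4.02 and 3.94 in day-1 cells (-4.37 ± 0.18). Gbp3, a guanylate-binding protein, read 9.54, 9.49 and 9.66 against 6.0, 5.92 and 5.96 (-3.61 ± 0.19). On all day-1 arrays both genes were near their mean in the iPS cells, which was 3.85 for Iigp1 and 5.76 for Gbp3.

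Among 19 sensors and signalling components of the interferon system, 7 were called lower and 1 higher, with a median of -0.45. The 7 are themselves interferon-induced in many cells. Irf7, the factor that amplifies interferon transcription, read 9.86, 9.72 and 9.84 against 6.56, 6.30 and 6.27 (-3.43 ± 0.23). Stat2, a transcription factor activated by the receptor, read 10.49 on each fibroblast array and 7.87, 7.70 and 7.93 in day-1 cells (-2.65 ± 0.10). The RNA sensors Ifih1 (-3.19 ± 0.14), Ddx58 (-1.89 ± 0.12) and Tlr3 (-2.15 ± 0.14) fell too, as did the RNA-activated kinase Eif2ak2 (-2.05 ± 0.19) and the ubiquitin ligase Trim25 (-1.16 ± 0.09). The member called higher was Irf5, a factor of Toll-like receptor signalling, at 1.06 ± 0.09, and its call was lost under quantile normalization. The receptor genes had smaller differences: Ifnar1 by -0.38 ± 0.08 and Ifnar2 by -0.75 ± 0.11, without a call. The adaptors Mavs (0.11) and Sting1 (0.20) were not called either.

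The chain that loads peptides on MHC class I molecules was lower in part. Of 15 measured antigen presentation genes 4 were called lower, with a median of -0.61 for the list. The class I gene H2-Q4 fell by 4.26-fold (-2.09 ± 0.11), the peptide transporter Tap1 by 2.99-fold (-1.58 ± 0.11) and the immunoproteasome subunit Psmb8 by 2.37-fold (-1.24 ± 0.09). The fourth, the class I transactivator Nlrc5, differed by -1.06 and lost its call without day-1 replicate 3 and under quantile normalization (-0.98). The shared light chain B2m read 12.46, 12.46 and 12.66 against 11.94, 11.93 and 11.95, a difference of -0.59 ± 0.24 that was not called.

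**Figure D2:**
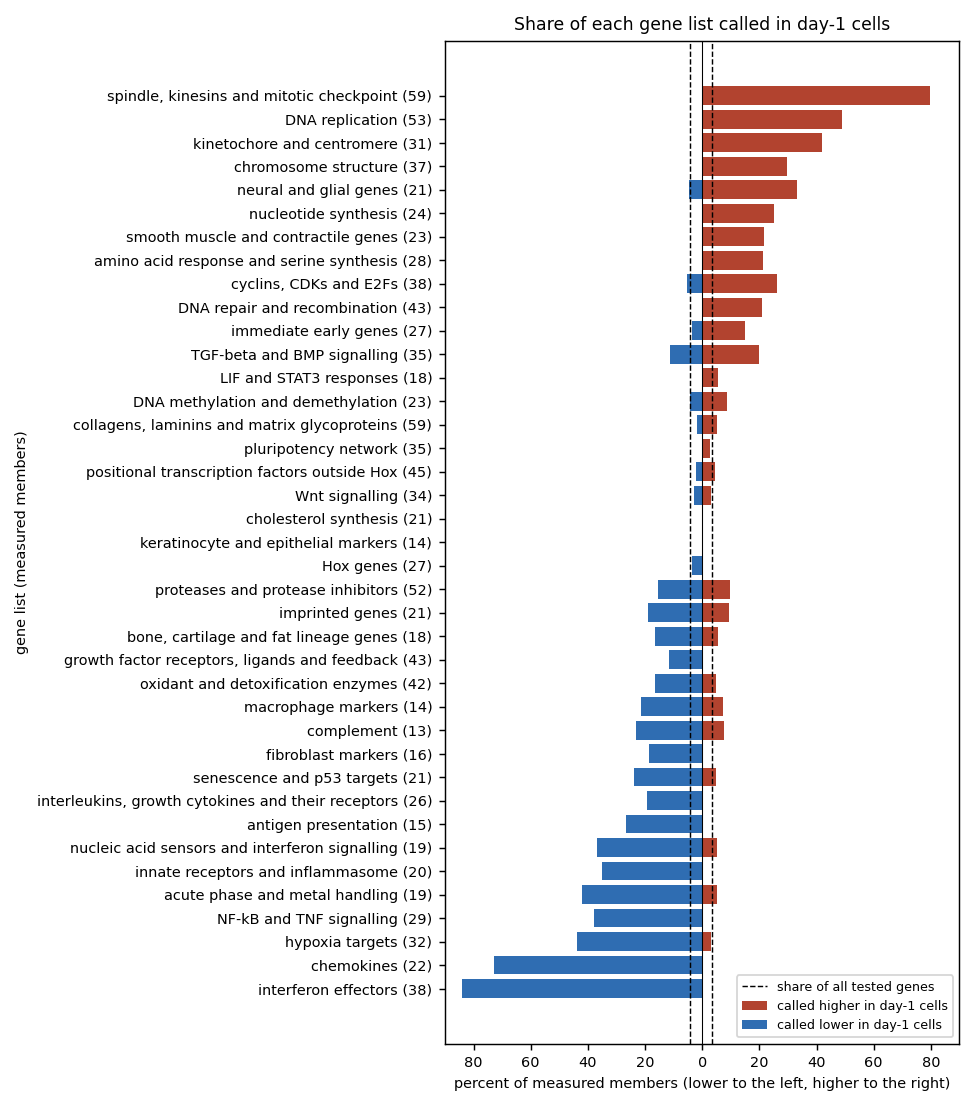
Percent of the measured members of each gene list (y axis, number measured in brackets, lists of at least 10) called lower (bars to the left) or higher (bars to the right) in day-1 cells, with dashed lines at the shares over all tested genes, 4.33% and 3.46%. The longest bars are those of the interferon effectors and chemokines on the lower side and of the spindle and replication lists on the higher side. The lists were chosen with earlier results of these data known.

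Chemokines, the secreted proteins that draw leukocytes, fell as a group. Of 22 measured genes 16 were called lower and 0 higher, with a median of -2.16, and 10 of the 12 that remain without the dimmest 25% were called. Ccl3, an attractant of monocytes, read 11.09, 11.52 and 11.55 against 6.11, 6.06 and 5.89, a 41.2-fold difference (-5.37 ± 0.13). Ccl11, or eotaxin, which draws eosinophils, read 11.32, 12.12 and 12.06 against 7.28, 6.96 and 7.24 (-4.67 ± 0.18). Both day-1 sets lay well below every fibroblast array. The monocyte attractant Ccl2 kept a high level, at 12.88, 12.99 and 12.97 against 10.37, 10.27 and 10.44 (-2.58 ± 0.08). Cxcl12, a chemokine of stromal cells that many fibroblasts make without stimulation, was the called member with the smallest difference (-1.06 ± 0.18), and its call was lost without fibroblast replicate 2 (-0.96) or 3 (-0.91). The 2 members with positive differences, Ccl17 (0.94) and Cx3cl1 (0.88 ± 0.09), were not called.

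Chemokine and interferon-induced genes lay next to each other on the chromosomes. Among tested genes in chromosome order there were 15 runs of at least 3 neighbours called in the same direction, 11 of them lower. They include Ccl2, Ccl7, Ccl11 and Ccl8 on chromosome 11, Cxcl3, Cxcl1 and Cxcl2 on chromosome 5, Ifit2, Ifit3, Ifit3b and Ifit1 on chromosome 19, Parp14, Dtx3l and Parp9 on chromosome 16, and the matrix metalloproteinase genes Mmp13, Mmp3 and Mmp10 on chromosome 9. Neighbours in such clusters are often paralogs, so their signals are not independent of each other. Cxcl1 read 11.36, 11.55 and 11.44 against 8.91, 8.95 and 8.82 (-2.56 ± 0.11), and Cxcl2 read 9.30, 9.43 and 9.91 against 5.47, 5.79 and 5.63 (-3.92 ± 0.16). Both encode attractants of neutrophils.

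The promoters of Cxcl1 and Cxcl2 are shown for the kappaB site, the element bound by NF-kB, which was searched by its consensus on both strands and is printed in capitals. In each, the palindrome-like site matches on both strands, as overlapping matches. They come from RefSeq, GRCm38.p6, at chr5:90891085-90891244 for Cxcl1 and chr5:90903739-90903898 for Cxcl2, both on the plus strand, and end at the start site.
Cxcl1: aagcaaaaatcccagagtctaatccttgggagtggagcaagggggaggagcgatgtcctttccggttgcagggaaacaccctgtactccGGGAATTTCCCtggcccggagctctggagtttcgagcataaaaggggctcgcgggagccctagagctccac
Cxcl2: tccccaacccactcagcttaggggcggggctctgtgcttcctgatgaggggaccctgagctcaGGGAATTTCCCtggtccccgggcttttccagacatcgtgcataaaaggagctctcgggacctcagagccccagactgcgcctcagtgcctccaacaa
The consensus occurs in 8.23% of all promoters of the table and in 10.7% of those of tested genes.

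The genes of NF-kB and TNF signalling were lower in part. Of 29 measured genes 11 were called lower and 0 higher, with a median of -0.65. Tnfaip3, which removes ubiquitin chains to end the signal, read 8.66, 9.17 and 9.06 against 6.72, 6.55 and 6.70 (-2.30 ± 0.12). Nfkbia, the inhibitor that NF-kB itself induces, read 10.42, 10.74 and 10.50 against 8.78, 8.77 and 8.74 (-1.79 ± 0.09). In both, every day-1 array was below every fibroblast array. The death receptor Fas (-2.33 ± 0.12), the kinase Ikbke (-1.94 ± 0.08) and the mitochondrial superoxide dismutase Sod2 (-1.66 ± 0.09) fell as well. The NF-kB subunit Rela differed by -0.11 ± 0.09 and was not called, and the TNF receptor Tnfrsf1a differed by 0.09.

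The largest falls of single genes were those of Saa3 and Lcn2, both acute-phase genes. Saa3, serum amyloid A of extrahepatic tissue, read 12.54, 12.73 and 13.03 against 5.12, 5.50 and 5.83, a fall of 156-fold (-7.28 ± 0.23; limma adjusted p = 2.1e-10). Lcn2, which withholds iron from bacteria by binding their siderophores, read 11.77, 11.80 and 11.74 against 5.25, 5.51 and 5.38, a fall of 83.9-fold (-6.39 ± 0.12). In both, the gap between the groups was far wider than the spread within either. Of the 19 measured acute-phase and metal-handling genes 8 were lower, and Serpina3n, a serine protease inhibitor, was the only one higher, at 7.59, 8.46 and 8.53 against 10.74, 10.45 and 10.55 (2.38 ± 0.26). Il6, an inducer of acute-phase genes, was lower at 10.30, 10.87 and 10.90 against 7.04, 7.22 and 7.35 (-3.49 ± 0.18). Of 26 measured interleukins, growth cytokines and receptors, 5 were called lower and 0 higher, Tslp among them (-1.05), which lost its call without fibroblast replicate 1 (-0.69) and with array weights (-0.89).

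Among 42 oxidant and detoxification enzymes 7 were called lower and 2 higher, with a median of -0.19. Nos2, the inducible nitric oxide synthase, read 9.69, 9.53 and 9.66 against 6.13, 6.08 and 6.01 (-3.56 ± 0.13). Gch1, which makes the tetrahydrobiopterin cofactor of that enzyme, fell from 6.60, 6.37 and 6.78 to 5.34, 5.31 and 5.26 (-1.28 ± 0.16). The itaconate-producing enzyme Acod1 (-2.77 ± 0.14), the cholesterol 25-hydroxylase Ch25h (-3.07 ± 0.22) and the phagocyte oxidase subunit Cybb (-2.78 ± 0.12) also fell. Gch1, Acod1 and Ch25h are outside that list and were named after their values were seen. Of 20 measured innate receptor and inflammasome genes 7 were called lower and 0 higher, with the C-type lectin Clec4e (-2.87 ± 0.18), the LPS-binding caspase Casp4 (-2.58 ± 0.12) and the lipoprotein receptor Tlr2 (-1.77 ± 0.18) among them. Tlr4 (-0.47) and Myd88 (-0.21), the receptor and adaptor for LPS, were not called.

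Several of these genes are also macrophage genes, so macrophage markers were read beside them. Of 14 measured markers 3 were called lower, Adgre1 (-2.0 ± 0.11), Cd14 (-1.54 ± 0.11) and Lyz2 (-1.03), and C1qb was higher (1.48 ± 0.12). The call of Lyz2 was lost without day-1 replicate 2 (-0.99), fibroblast replicate 2 (-0.98) or fibroblast replicate 3 (-0.96). The list mean ran from 7.11 to 7.40 in fibroblasts and from 6.92 to 7.09 in day-1 cells. Cd68 (-0.18 ± 0.09) and Csf1r (0.12 ± 0.09), which mark macrophages more broadly, were not called, with fibroblast means of 7.70 for Cd68 and 6.53 for Csf1r. In RNA from whole cultures, fewer cells of a type and less RNA per cell cannot be told apart, and the part of macrophages in the lower genes was not tested.

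**Figure D3:**
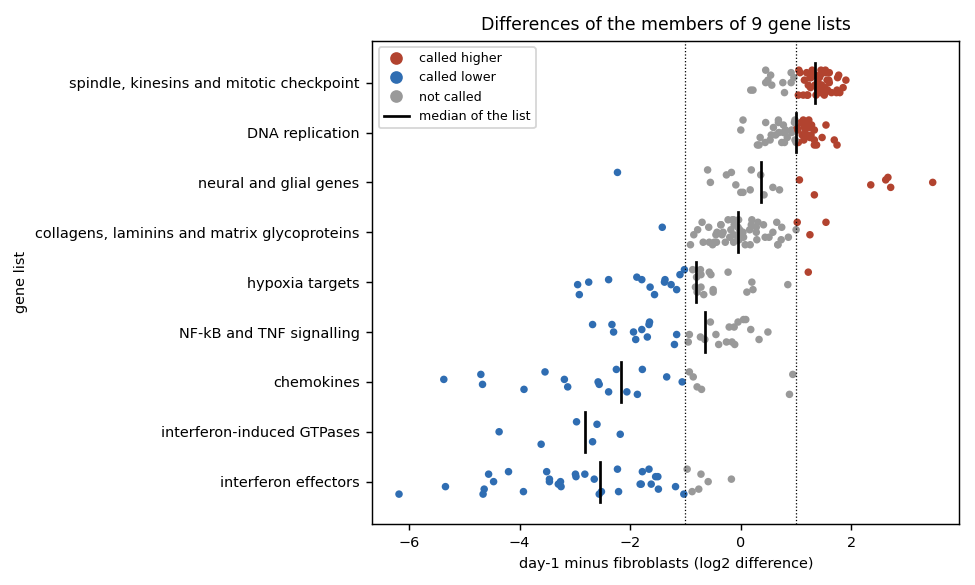
Log2 differences (day-1 minus fibroblasts, x axis) of every measured member of 9 gene lists (y axis), with a black bar at each list's median and dotted lines at a 2-fold difference. All interferon effectors lie left of 0 and all spindle genes right of it, and the collagen and matrix list straddles 0.

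A lower set of another kind was that of hypoxia targets. Cells degrade the hypoxia-inducible factor Hif1a when oxygen is ample, after prolyl hydroxylases such as Egln1 mark it, and its targets shift metabolism from respiration to glycolysis and include Egln3 as feedback. Of 32 measured hypoxia targets and regulators 14 were called lower and 1 higher, 27 had negative differences, and the median was -0.81. The median level of the list was 9.50 to 9.92 on the fibroblast arrays and 8.28 to 8.38 on the day-1 arrays, with 8.51 to 8.67 in iPS cells and 8.36 to 8.45 in ES cells. The fibroblast arrays were thus the highest of the 4 groups by this median.

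Adm, the vasodilator adrenomedullin, read 11.24, 11.46 and 11.38 against 8.40, 8.5 and 8.42, a 7.59-fold fall (-2.92 ± 0.10; limma adjusted p = 4e-10). Bnip3, a receptor that sends mitochondria to autophagy, read 10.83, 11.35 and 11.25 against 8.51, 8.27 and 8.40 (-2.75 ± 0.12). Higd1a, a small protein of the respiratory chain, read 8.96, 9.38 and 9.55 against 6.32, 6.34 and 6.37 (-2.95 ± 0.12). In these genes, too, no day-1 array reached any fibroblast array. Egln3 fell by 5.23-fold (-2.39 ± 0.13) and Egln1 by 2.23-fold (-1.16 ± 0.10). Pdk1, which keeps pyruvate out of mitochondria, fell by 3.68-fold (-1.88 ± 0.13), and the collagen prolyl hydroxylase P4ha2 by 3.12-fold (-1.64 ± 0.09). Hif1a itself (-0.67 ± 0.07), the angiogenic factor Vegfa (-0.72 ± 0.11) and the glucose transporter Slc2a1 (-0.57 ± 0.06) were lower by less than 2-fold and not called. Car12, a carbonic anhydrase, was the exception that rose (1.22 ± 0.12). Ndufa4l2 (-1.91 ± 0.24) and Mgarp (-1.41 ± 0.16), a pair of mitochondrial proteins also known as hypoxia-induced, were outside the list and were named after their values were seen. Oxygen levels are not given in the labels.

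Bnip3 illustrates the promoter element of these genes, whose core ACGTG was searched on both strands and is in capitals. The stretch is from RefSeq, GRCm38.p6, chr7:138909507-138909666, minus strand, and ends at the start site. Overlapping matches on both strands, at -108 and -107 from the start, form the palindrome in capitals.
Bnip3: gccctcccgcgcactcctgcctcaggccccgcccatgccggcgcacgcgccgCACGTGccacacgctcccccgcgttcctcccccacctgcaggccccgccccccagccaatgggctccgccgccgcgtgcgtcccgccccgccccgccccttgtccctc
Promoters were found for 26 hypoxia genes, of which 15, or 57.7% (exact 95% interval 36.9 to 76.6), hold the core in the 250 bases before the start, against 24.8% of tested genes and 18.49% of all promoters. In the nearest 100 bases the shares are 34.6% against 13.0% of tested genes. The list was made of known hypoxia genes, and the shares count its members whether called or not. They therefore describe the list and not the difference between the groups. The part of the element in that difference was not tested.

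The lists with the highest shares of genes called higher were those of the spindle, DNA replication and the kinetochore. A cell loads the Mcm2 to Mcm7 helicase on its origins before S phase with the help of Cdc6 and Cdt1, and activates it with Cdc45 and the GINS complex. Of 53 measured replication genes 26 were called higher and 0 lower, with a median of 1.00. Mcm5, a helicase subunit, read 8.44, 8.06 and 8.03 in fibroblasts and 9.90, 9.94 and 9.91 in day-1 cells (1.74 ± 0.09; 3.34-fold). The day-1 arrays agreed closely, and fibroblast replicate 1 was the highest of its group. Mcm2, Mcm3, Mcm4, Mcm6 and Mcm7 rose by 1.23 to 1.47, and the origin licensing factor Cdc6 by 1.54 ± 0.09. Pcna, the sliding clamp, read 10.71, 10.37 and 10.30 against 11.66, 11.53 and 11.63 (1.15 ± 0.10). The origin recognition subunits Orc4 (0.00 ± 0.11) and Orc5 (0.04 ± 0.08) did not pass. Enzymes that supply nucleotides were higher in 6 of 24 measured genes, with thymidine kinase Tk1 at 1.43 ± 0.12 and the ribonucleotide reductase subunit Rrm2 at 1.22 ± 0.11. DNA repair genes were higher in 9 of 43, with the Fanconi anaemia core subunit Fancb at 1.60 ± 0.10.

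Spindle genes had the highest such share. Of 59 measured genes of the spindle, kinesins and mitotic checkpoint 47 were called higher and 0 lower, all 59 differences were positive, and the median was 1.35. With the 2-fold minimum built into the test, by limma's treat, 30 of these 59 and 6 of the 53 replication genes passed. Racgap1, a subunit of the centralspindlin complex that sets the cleavage plane, read 8.53, 8.23 and 8.43 against 10.31, 10.30 and 10.30 (1.90 ± 0.08; 3.74-fold). Its partner kinesin Kif23 rose by 1.64, and Ect2, the exchange factor that it recruits, by 1.75 ± 0.09. Kif18a, a kinesin that trims chromosome movements, read 6.15, 5.85 and 5.97 against 7.84, 7.78 and 7.90 (1.85 ± 0.09). In Racgap1 and Kif18a every day-1 array lay above every fibroblast array. Securin, Pttg1, was among the 12 that did not pass (0.18 ± 0.08).

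The kinetochore, where spindle fibres attach, had 13 of 31 measured genes called higher and 0 lower. Nuf2, of the complex that holds microtubules, rose by 1.61 ± 0.07, and the centromeric histone Cenpa by 1.39 ± 0.07. Of 37 genes of chromosome structure 11 were higher and 0 lower, with topoisomerase Top2a at 1.48 ± 0.09. Condensin genes Ncapg (1.42), Ncaph (1.27) and Smc4 (1.21) rose, and cohesin genes Smc3 (0.32), Smc1a (0.55) and Rad21 (0.65) did not pass. Among 38 cyclins, kinases and their regulators 10 were higher, led by cyclin A2, Ccna2 (1.70 ± 0.09), and the mitotic transcription factors Mybl2 (1.68 ± 0.09) and Foxm1 (1.5 ± 0.10). The 2 called lower were Cdkn2a (-1.27 ± 0.07), which encodes inhibitors of proliferation, and the G1 kinase Cdk6 (-1.07 ± 0.08), which lost its call without day-1 replicate 3. Cyclin D1, Ccnd1, differed by 0.12 ± 0.12.

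Histone genes were gathered by the form of their symbol after values were seen, so their counts, too, are descriptive. Whether each lies in a replication-dependent cluster was not checked. Of 23 measured genes 14 were called higher and 2 lower, with a median of 1.09. H2ac4 read 6.43, 6.20 and 5.98 against 8.17, 8.20 and 8.38 (2.05 ± 0.15), and H1f5, a linker histone, rose by 1.94. H2bc4 (-1.30) and H3c15 (-1.58) went the other way. Many genes of the same histone class are near-identical in sequence, so their signals may not be separate.

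A pair of mitotic promoters and 1 replication promoter are shown for the elements of cell cycle genes. Cdc20, the activator of the anaphase-promoting complex (1.53 ± 0.07), and the kinesin Kif11 (1.74 ± 0.11) hold the cell cycle homology region TTTGAA. That core is known from a part of the late cell cycle genes. It was searched on both strands, here and in the shares below, and in Kif11 it reads TTCAAA on the gene's strand. Mcm5 holds the E2F element, searched as TTTNGCGC, with matches on both strands that overlap. All are 160 bases from RefSeq, GRCm38.p6, ending at the start site, at chr4:118437344-118437503 (minus strand) for Cdc20, chr19:37376222-37376381 (plus strand) for Kif11 and chr8:75109349-75109508 (plus strand) for Mcm5, and capitals mark the element.
Cdc20: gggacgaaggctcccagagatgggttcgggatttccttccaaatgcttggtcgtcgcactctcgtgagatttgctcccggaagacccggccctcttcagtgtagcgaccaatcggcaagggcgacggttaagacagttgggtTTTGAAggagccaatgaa
Kif11: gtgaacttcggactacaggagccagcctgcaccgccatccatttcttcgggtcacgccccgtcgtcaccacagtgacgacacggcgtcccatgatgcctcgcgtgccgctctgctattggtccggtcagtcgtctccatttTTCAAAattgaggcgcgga
Mcm5: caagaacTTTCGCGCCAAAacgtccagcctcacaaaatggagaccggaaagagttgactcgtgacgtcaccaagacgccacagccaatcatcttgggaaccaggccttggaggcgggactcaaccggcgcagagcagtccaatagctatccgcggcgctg
Promoters were found for 50 spindle genes, of which 17, or 34.0% (exact 95% interval 21.2 to 48.8), hold the cell cycle homology region in the 250 bases before the start, against 13.0% of tested genes and 18.26% of all promoters. Of 43 replication genes 5, or 11.6% (3.9 to 25.1), hold the E2F element, against 2.2% of tested genes and 1.31% of all promoters. The cell cycle homology region was found in 22.2% (8.6 to 42.3) of kinetochore promoters and 45.2% (27.3 to 64.0) of chromosome structure promoters. All these shares count list members whether called or not. The part of the elements in the differences was not tested.

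**Figure D4:**
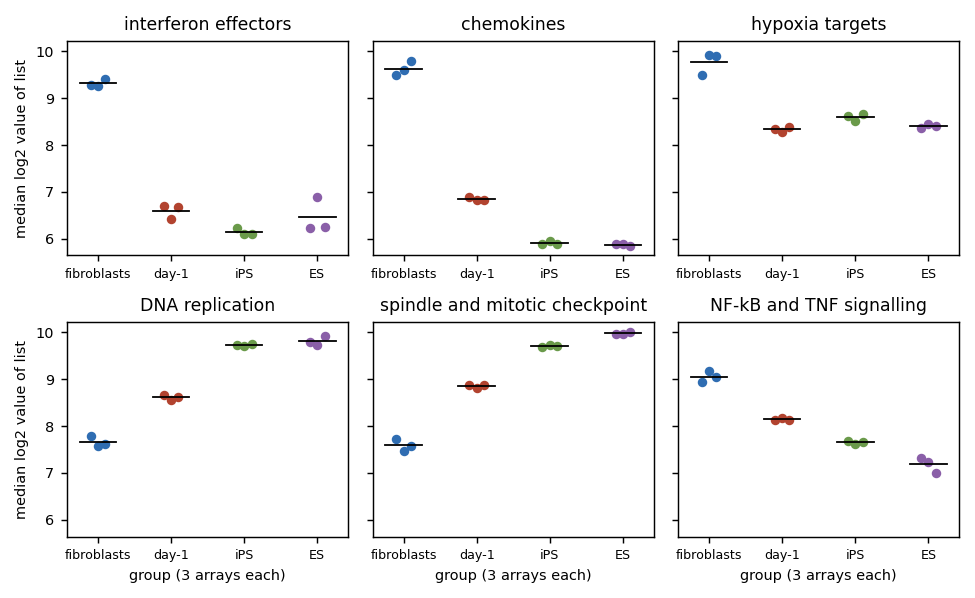
Median log2 value of 6 gene lists on each array (y axis), by group (x axis, 3 arrays each), with a line at the mean of the 3. In the interferon, chemokine and hypoxia lists the fibroblasts stand above the other 3 groups, and in the replication and spindle lists day-1 cells lie between fibroblasts and the pluripotent lines.

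Against the pluripotent lines, the division genes of day-1 cells stood partway. The median level of the spindle list was 7.46 to 7.72 on the fibroblast arrays, 8.82 to 8.87 on the day-1 arrays, 9.68 to 9.72 in iPS cells and 9.96 to 10.02 in ES cells. For replication the ranges were 7.57 to 7.80, 8.56 to 8.66, 9.72 to 9.75 and 9.73 to 9.93. The interferon effectors of day-1 cells, at 6.43 to 6.69, were near the 6.10 to 6.24 of iPS cells. Medians of a list over arrays are levels, and they include probe sets of unequal response.

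Several genes best known from the nervous system were higher. Of 21 measured neural and glial genes 7 were called higher and 1 lower, with a median of 0.36. Fabp7, a lipid carrier of radial glia, read 7.05, 6.39 and 6.64 against 10.13, 10.14 and 10.20, an 11-fold rise (3.47 ± 0.13). Map2, a microtubule protein of dendrites, read 6.70, 6.52 and 6.71 against 9.25, 9.27 and 9.26 (2.62 ± 0.10). The mean of Fabp7 was 5.26 for iPS and 5.02 for ES cells, and that of Map2 was 6.72 and 7.05, so day-1 cells held the highest level of the 4 groups in both. The intermediate filament genes Nefl (2.66 ± 0.14), Nefm (1.33 ± 0.15) and Nes (2.35 ± 0.14) rose, as did the tubulin Tuba8 (2.71 ± 0.15). Gpm6b, a membrane proteolipid, was the member called lower (-2.23 ± 0.14). Ncam1 (-0.60) and Sox11 (-0.55) did not pass, and of 8 Schwann and neural crest markers 0 were called. Gjb2, a gap junction protein outside the list, rose from 6.37, 5.46 and 6.16 to 9.13, 9.0 and 9.08 (3.08 ± 0.19; 8.43-fold).

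Signalling genes gave small and mixed sets. LIF acts through Lifr and Il6st on Stat3, and of 18 measured response genes 1 was called, Socs2, a feedback inhibitor of cytokine receptors. Socs2 read 8.22, 7.96 and 8.26 against 10.70, 10.76 and 10.79 (2.61 ± 0.08; 6.09-fold), with no overlap. The receptor Lifr differed by 0.13 and Stat3 by -0.14. In BMP signalling, the targets Id1 (1.41 ± 0.13) and Id2 (1.23 ± 0.09) and the transducer Smad9 (1.58 ± 0.07) rose. Within the list of 35 TGF-beta and BMP genes 7 were higher and 4 lower, and without fibroblast replicate 2 the latter number was 2. The co-receptor Tgfbr3 was lower (-1.46 ± 0.07). Of 27 immediate early genes 4 were higher, with Fosb at 1.82 ± 0.17 and Fos at 1.5 ± 0.19, and Ier3 was lower (-1.71 ± 0.12). Myc (0.11 ± 0.13) did not pass.

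Metabolic lists differed in kind. Amino acid uptake and serine synthesis had 6 of 28 measured genes higher and 0 lower, among them the transporters Slc38a4 (2.45 ± 0.11), Slc7a3 (1.65 ± 0.10) and Slc7a5 (1.15 ± 0.07) and the first enzyme of serine synthesis, Phgdh (1.14 ± 0.10). The stress factors Ddit3 (-0.93) and Atf5 (-0.76) of that list were not called. Of 21 cholesterol synthesis genes 0 were called. The oxidant and detoxification genes called higher were the quinone reductase Nqo1 (1.30 ± 0.14) and the retinoic acid-producing Aldh1a3 (2.22 ± 0.14). The aryl hydrocarbon receptor Ahr (1.10 ± 0.10) and its repressor Ahrr (1.92 ± 0.13) were higher too, and were named after their values were seen; the call of Ahr was lost without fibroblast replicate 2, while their target Cyp1b1 differed by 0.13 ± 0.11.

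Most fibroblast markers were not called. Of 16 fibroblast markers 0 were higher and 3 lower: the matrix proteoglycan Dcn (-1.42 ± 0.12), the transcription factor Twist2 (-1.36 ± 0.10) and the growth factor receptor Pdgfra (-1.16 ± 0.12). Vim, the mesenchymal filament protein, read 13.45, 13.41 and 13.45 against 13.49, 13.48 and 13.45, and collagen Col1a1 read 11.86, 12.02 and 11.99 against 12.10, 12.10 and 12.15. Neither passed the call, and both groups carried the markers at high levels. Vim lay near the highest value of the deposited table, 13.64, so a difference in it may not show. Of 59 collagen, laminin and matrix genes 3 were higher and 1 lower, which is near the background. Of 27 Hox genes 1, Hoxc6, was called (-1.02), and without day-1 replicate 1 or fibroblast replicate 3 none was. Of the markers of other cell types, 0 of 5 endothelial, 0 of 14 epithelial and 0 of 3 lymphocyte and mast cell markers were called. Those lists hold 18, 21 and 17 genes, and the members that were not measured cannot be judged. A measured marker may be in the table only because it varies in iPS or ES cells. Of 7 skeletal muscle markers 2 were called higher, the actin Acta1 (1.17) and Des (1.59 ± 0.09), which smooth muscle also makes, and the list mean was 6.40 to 6.57 on the fibroblast arrays and 7.03 to 7.10 on the day-1 arrays. The part of muscle cells was not tested. Of 52 proteases and inhibitors 5 were called higher and 8 lower. Mmp3, or stromelysin, read 11.79, 12.41 and 12.33 against 8.67, 8.41 and 8.51 (-3.65 ± 0.15), with the collagenase Mmp13 at -3.0 ± 0.15 and Mmp10 at -2.97 ± 0.12, while the inhibitor Timp1 differed by -0.04 ± 0.17. The plasminogen activator Plau (1.30 ± 0.13) and its receptor Plaur (1.15 ± 0.15) rose. In the contractile list 5 of 23 rose, with intestinal-type actin Actg2 at 1.43 ± 0.16 and desmin, Des, at 1.59 ± 0.09, while Acta2 differed by 0.01 ± 0.20.

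The imprinted locus between Dlk1 and Dio3 on chromosome 12 carried runs of lower genes. Its maternal allele makes the noncoding RNAs Meg3 and Rian and a large cluster of microRNAs, and the paternal allele makes Dlk1 and Dio3. Meg3 read 11.10, 11.21 and 11.20 against 9.64, 9.82 and 9.68 (-1.46 ± 0.10; limma adjusted p = 9.4e-08), and Rian read 7.71, 7.94 and 7.84 against 6.49, 6.83 and 6.36 (-1.27 ± 0.16). The paternal genes Dlk1 (0.69 ± 0.13) and Dio3 (0.56 ± 0.19) had differences of the other sign and were not called. Of the 24 measured microRNA genes in between, 15 were called lower and 0 higher, all 24 differences were negative, and the median was -1.08. Of 84 microRNA genes elsewhere 11 were lower and 0 higher, with a median of -0.19. Over all tested genes 4.33% were called lower and 3.46% higher. Of all 108 measured microRNA genes 26 were lower and 0 higher, so the lower calls were not confined to the locus. These groups were formed after values were seen. Leaving out any single array left 14 to 16 of the 24 called lower, while without the dimmest 25% of genes, 8 of the 24 were tested and 5 called, and with the 2-fold minimum inside the test 4 were. The sources do not say whether such a probe set reads the hairpin or a host transcript. On chromosome 12 as a whole 32 of 358 genes, 8.94%, were lower, against 4.33% over all chromosomes. The 15 microRNA genes, Meg3 and Rian are among those 32, so this share is not separate from the counts of the locus.

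**Figure D5:**
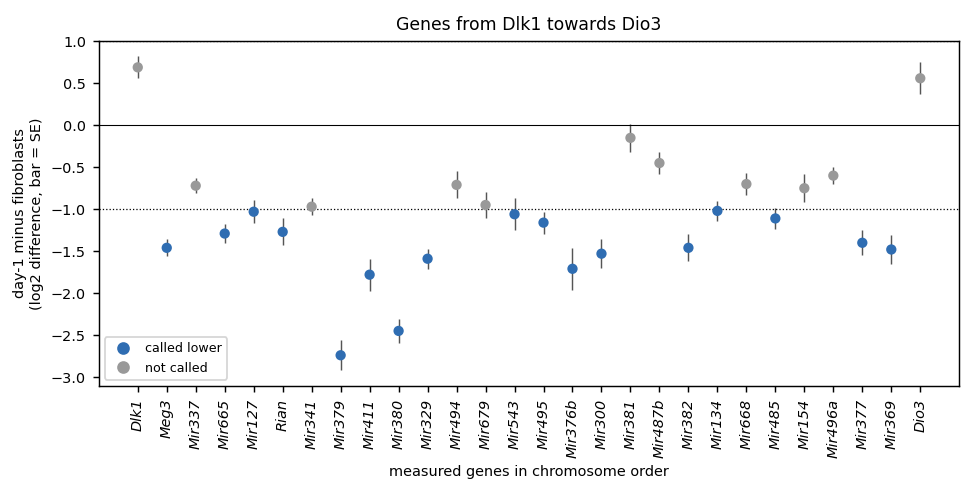
Log2 difference (day-1 minus fibroblasts, y axis; bars are the standard error of the limma fit) of the 28 measured genes from Dlk1 to Dio3, in chromosome order on the x axis at equal spacing, with a dotted line at a 2-fold fall. Dlk1 and Dio3 at the ends lie above 0 and every gene between them lies below it, lowest at Mir379.

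The mature sequences of the lowered microRNA genes found to share a seed are given from RefSeq. A seed is the bases 2 to 8, in capitals, that pair with a target. Seeds were compared only among the products listed there. For Mirlet7a-2, also called lower (-1.17), only the 3p product was listed, so its 5p seed was not compared. Mir379 and Mir411 are neighbours in the Dlk1 to Dio3 cluster, and their 3p products carry the seed AUGUAAC. Mir218-1 and Mir218-2, on chromosomes 5 and 11, make the same 5p product.
miR-379-3p: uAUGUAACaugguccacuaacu
miR-411-3p: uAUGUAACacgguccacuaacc
miR-218-5p: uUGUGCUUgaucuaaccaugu
Mir379 read 6.01, 5.80 and 6.64 against 3.39, 3.28 and 3.54 (-2.74 ± 0.18), and Mir411 read 6.47, 6.52 and 7.17 against 4.58, 5.21 and 5.04 (-1.78 ± 0.19). Mir218-1 read 8.26, 8.21 and 8.26 against 5.63, 5.89 and 5.43 (-2.59 ± 0.16), and Mir218-2 read 7.35, 6.97 and 7.03 against 5.68, 5.57 and 5.51 (-1.53 ± 0.19). In each of the 4 every day-1 array lay below every fibroblast array. Mirlet7d (-1.58 ± 0.12) and the p53-induced Mir34a (-1.22 ± 0.11) were lower as well.

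Sex-linked genes were read to compare the origin of the cultures. Xist, the RNA that coats the inactive X chromosome of female cells, lay at 4.09, 3.95 and 4.19 in fibroblasts and 4.45, 4.20 and 3.92 in day-1 cells, near the floor in both. The Y-linked Eif2s3y read 7.58, 7.80 and 8.03 against 6.02, 5.88 and 5.70 (-1.94 ± 0.12), and Kdm5d, also on the Y chromosome, went the other way at 5.96, 5.75 and 5.85 against 6.61, 6.82 and 6.87 (0.91 ± 0.11, not called). The Y genes therefore did not move together.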

How the data were processed

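RNA of 12 mouse cell samples was extracted with Trizol, biotin-labelled with the Affymetrix WT Terminal Labeling Kit and hybridised to arrays, per the labels' protocols. The authors deposited 1 table of log2 signals for 10360 probe sets, with a range over the series of at least 0.51 in each; how signals were summarised, normalised and filtered was not given in the labels or the file. Of these probe sets 9542 carry 1 gene symbol in the platform annotation, 344 several and 474 none, and the probe set with the highest mean stood for a gene with several. The values were used as deposited, with limma 3.58.1 in R 4.3.3 fitted to all 4 groups (lmFit, eBayes), the contrast of day-1 cells minus fibroblasts, and Benjamini-Hochberg adjustment over 9539 genes. The number of arrays, 3 a group, limits the precision, and each ± is a standard error of the fit unless named otherwise. Scripts used Python 3.11.15 with pandas 2.3.3, numpy 2.4.6, scipy 1.17.1 and matplotlib 3.10.9, and the fit was tested on simulated data. Replicate numbers come from the titles and do not pair the samples.

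The members and gene lists were chosen with earlier results of these data known. The rule named the called genes with the 15 largest rises and 15 largest falls and no overlap of arrays, up to 6 called members of each list by size (or up to 2 by mean level where none was called), list exceptions, Pou5f1, Tet1, Sox2, Klf4, Myc and Nanog, runs of at least 3 neighbouring called genes, and the 10 called genes of highest mean in each direction. Other genes named, among them receptors, uncalled core components and the microRNA genes outside the Dlk1 to Dio3 locus, were chosen after their values were seen. Promoters and microRNAs were matched by gene ID to RefSeq tables, and 79.0% of tested genes had a promoter there. Alternatives were quantile normalization, centring, a filter on the dimmest 25% of genes by mean over all 12 arrays, other ways to combine probe sets, other limma settings, a replicate block, and leaving out each array.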

Additional observations from a re-analysis of the deposited data

Results flagged for a closer look

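Probe sets that could not be given a single gene stand outside the comparison, and some of them differed as far as named genes did. Of the 474 probe sets with no symbol 16 were called higher and 26 lower, 8.86% in all, with differences from -5.54 to 2.2. Of the 344 with several symbols 17 were called higher and 36 lower, 15.4% in all, with differences from -3.58 to 5.52. Over named genes the share was 7.79%.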

How the results depend on the processing

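The 330 higher and 413 lower calls became 2966 and 2483 with no fold minimum, and 115 and 200 with the 2-fold minimum inside the test. Without the dimmest 25% of genes 271 were called higher and 248 lower, so that 52.2% of calls were higher in place of 44.4%. Fewer genes were tested there, and the lower counts of the interferon, GTPase and chemokine lists shrank to 12, 1 and 10. Leaving out an array gave 310 to 361 higher and 389 to 474 lower calls. Replicate numbers did not pair the samples (deviations of same-numbered arrays correlated at -0.21, -0.06 and 0.06), and a replicate block gave 330 and 413. Of the other settings, quantile normalization gave 313 and 413 and every probe set taken alone 362 and 475.

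Differences near 0 changed sign, all in genes that were not called. Timp1 turned to 0.13 under quantile normalization. When each array was left out in turn, Acta2 ran from 0 to 0.03, Cyp1b1 from -0.03 to 0.21, Lifr from -0.06 to 0.23, Orc4 from -0.08 to 0.08, Orc5 from -0.01 to 0.1, Sox2 from -0.4 to 0.08 and Xist from -0.01 to 0.25. Oas1a, not called, passed at -1.07 without fibroblast replicate 1, at -1.03 without day-1 replicate 3 and at -1.02 with array weights. The cause was not tested. The precision is limited by 3 arrays a group.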
